A study of Mus musculus with 14 samples.

Results

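GABA receptor subunits were followed in ribosome-bound RNA of hippocampal parvalbumin (PV) neurons of mice that had or had not gone through chronic social defeat stress (CSDS). The set holds 7 of the 39017 genes in the count table, chosen by name: Gabra2, Gabra4 and Gabra5, which encode α subunits of the GABA-A receptor, Gabrb2, which encodes a β subunit, Gabrd, which encodes the δ subunit, and Gabbr1 and Gabbr2, which encode the subunits of the GABA-B receptor. All 7 passed the filter on low counts in every comparison. Gabra2 and Gabra5 were lower and Gabrd was higher in PV-neuron RNA than in total hippocampal RNA, each by more than 4-fold, and Gabrb2 was the only member that differed between stress groups, with 1.51-fold less in susceptible than in resilient mice. That call lay near the threshold: it was kept in 1 of 7 fits with a library of the comparison left out and in 4 of 9 other settings.

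GABA-A receptors are pentameric chloride channels, usually of α, β and either γ or δ. The α subunit shapes affinity, kinetics and location, and receptors with δ or with α5 are known for slow tonic inhibition outside synapses. Receptors with α2 are typical of synapses. GABA-B receptors are G protein-coupled: the protein of Gabbr1 binds GABA, that of Gabbr2 couples to the G protein, and both are needed at the cell surface, where they open potassium channels and close calcium channels.

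In translating ribosome affinity purification (TRAP), ribosomes carrying the EGFP-tagged protein L10a are pulled from a homogenate, and the RNA bound to them is sequenced. All mice, non-defeated ones included, were males that carried both the Cre-dependent EGFP-L10a allele and PV-Cre, so the tag was made wherever the parvalbumin gene drives Cre, in all hippocampal subfields together. Both hippocampi of 1 mouse made 1 TRAP sample. The groups were non-defeated (4 samples), resilient (4) and susceptible (3), the defeated mice having been confronted with CD-1 aggressors and then divided by their social interaction ratio, and 3 input samples, which were total RNA of non-defeated homogenates taken before TRAP. The labels list the input samples as translating RNA like the rest, whereas the design text calls them total RNA, and they were used here as total RNA. Each library held between 64110214 and 94726962 counts. Values below are CPM (counts scaled to library size) after TMM normalization, which scales libraries to one another, or the same per kilobase of exon (RPKM) where genes are compared with each other. Differences are log2 fold changes from edgeR's quasi-likelihood test in 1 model of all 14 libraries, and a gene was called at an adjusted p under 0.05 over 21298 genes. Each TRAP sample is a separate mouse, so the samples compared between TRAP groups are mice. The spread behind those p-values was estimated from all 14 libraries, with the 3 input samples included, and not from TRAP mice alone. The sample numbers do not show whether an input sample shares its homogenate with a TRAP sample, and the samples were treated as unpaired.

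The sequences shown first are the promoters of Gabra2 and Gabra5, the members most depleted from PV-neuron RNA, and of Gabrb2, the member that separated susceptible from resilient mice. They are RefSeq sequences of build GRCm38.p6, from 250 bases before to 50 bases after an annotated start, written 5′ to 3′ on the strand of the gene. Of the 7 members, 6 had an entry, Gabrd being the other, and Gabrb2 had 3 windows, of which the one furthest upstream is shown. Capitals mark a GC box (GGGCGG or its reverse complement CCGCCC) or a TATA box (TATAAA or TTTATA), and the motifs do not overlap.
Gabra2, chr5:71095800-71096099, minus strand: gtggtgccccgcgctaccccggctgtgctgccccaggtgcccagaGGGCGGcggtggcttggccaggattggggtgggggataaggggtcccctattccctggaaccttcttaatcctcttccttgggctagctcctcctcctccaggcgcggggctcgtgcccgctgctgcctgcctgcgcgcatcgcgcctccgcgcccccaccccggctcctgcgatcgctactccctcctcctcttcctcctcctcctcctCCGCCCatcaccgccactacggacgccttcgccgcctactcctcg
Gabra5, chr7:57510010-57510309, minus strand: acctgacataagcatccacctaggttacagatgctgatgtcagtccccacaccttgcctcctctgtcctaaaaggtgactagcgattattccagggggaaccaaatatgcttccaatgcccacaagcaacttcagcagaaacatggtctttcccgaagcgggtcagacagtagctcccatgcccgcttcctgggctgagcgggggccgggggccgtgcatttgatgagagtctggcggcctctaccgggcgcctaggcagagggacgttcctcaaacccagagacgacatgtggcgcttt
Gabrb2, chr11:42420190-42420489, plus strand: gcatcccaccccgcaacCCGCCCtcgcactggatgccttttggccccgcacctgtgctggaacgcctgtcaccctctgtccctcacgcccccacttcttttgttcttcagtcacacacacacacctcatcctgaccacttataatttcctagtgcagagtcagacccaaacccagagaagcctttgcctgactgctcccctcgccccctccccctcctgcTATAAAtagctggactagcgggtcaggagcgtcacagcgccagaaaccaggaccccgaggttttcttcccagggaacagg
The Gabra2 window held 25 CG pairs and 2 GC boxes. That of Gabra5 held 13 CG pairs and neither motif. That of Gabrb2 held 11 CG pairs, 1 GC box and 1 TATA box, whereas its other windows, starting at 42420524 and 42420951, each held 9 CG pairs and neither motif. Of 32851 promoter windows of the same length, 35.7% held a GC box and 13.6% a TATA box, and the median number of CG pairs was 7. No member's position in this range was tested against its level.

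All 7 genes are protein-coding. In the mm10 (GRCm38) annotation, Gabra2 (ENSMUSG00000000560) lies on the minus strand of chromosome 5 from 70957597 to 71095849, and Gabra4 (ENSMUSG00000029211) on the same strand from 71569749 to 71658308. Gabra5 (ENSMUSG00000055078) lies on the minus strand of chromosome 7 from 57407672 to 57510059 and Gabrb2 (ENSMUSG00000007653) on the plus strand of chromosome 11 from 42419757 to 42629028. Chromosome 4 carries both Gabrd (ENSMUSG00000029054), from 155384980 to 155398112, and Gabbr2 (ENSMUSG00000039809), from 46662305 to 46991873, both on the minus strand, while Gabbr1 (ENSMUSG00000024462) lies on the plus strand of chromosome 17 from 37045966 to 37075067. The library kit does not mark strand, so reads in shared exons cannot be assigned: Gabra4 shares 46 exon bases (0.756%) with Gabrb1 on the other strand, and Gabra5 shares 148 (4.98%) with the antisense gene Gm9962.

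Markers of PV interneurons were enriched, though those of other cells were present too. Pvalb stood at 1465 ± 134 CPM (SD, n = 4) in non-defeated TRAP and 25.4 ± 6.03 (SD, n = 3) in input, and all 12 listed markers of PV interneurons were called higher in TRAP. Of the 10 markers of other interneurons, 6 were called lower and 2 higher: Sst, with 190 ± 35.1 CPM in non-defeated TRAP and 62.5 ± 6.13 in input (log2 fold change 1.61), and Npy, with 184 ± 61.9 and 26.6 ± 2.61 CPM (2.79). All 13 markers of hippocampal excitatory neurons were called lower, but none was at 0: their summed level was between 1118 and 1343 CPM in non-defeated TRAP and between 3389 and 4050 in input. Oligodendrocyte markers summed to between 882 and 1281 CPM in non-defeated TRAP and astrocyte markers to between 223 and 351. Of the 10 thalamic markers, Rora and Ramp3 were called higher and Calb2 lower in TRAP. They were uneven within groups, with sums between 493 and 1000 CPM in non-defeated 9 and 11, resilient 7 and input 14 and at most 337 CPM in susceptible libraries. The calls of the members, and the descriptions of their levels, are also given without these 4 libraries.

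Of the 7 members, 2 were called higher (Gabrd and Gabbr1) and 3 lower (Gabra2, Gabra4 and Gabra5) in non-defeated TRAP than in input. Over all genes tested, 27.4% were called higher and 27.6% lower. The median log2 fold change was -0.01 over the members and -0.04 over all genes. In 5 members the 4 TRAP and 3 input libraries did not overlap, as in 62.0% of all genes. Without the 4 libraries high in thalamic markers, 2 members were called higher and 2 lower, beside 4846 and 5152 of the 21450 genes then tested. TRAP and input differ both in the cells sampled and in taking ribosome-bound against total RNA, and these cannot be told apart. In bulk samples, fewer cells of a type and less RNA per cell cannot be told apart either.

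Gabra5, the α subunit of extrasynaptic receptors in pyramidal cells, was the most depleted member. It stood at 185, 191 and 149 CPM in input 12, 13 and 14 and at 35.6, 34.7, 38.2 and 34.2 CPM in non-defeated 1, 6, 9 and 11. Every TRAP library was far below every input library, and the TRAP libraries lay close together. The log2 fold change was -2.30 (SE 0.14, adjusted p = 1.32e-08 by edgeR), a 4.91-fold lower level, and the two-sided exact permutation test gave p = 0.0286, the smallest that 4 against 3 samples allow.

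Gabra2, an α subunit typical of synapses on pyramidal cells and of their axon initial segments, was the least abundant member in TRAP. It stood at 18.8, 24.8 and 18.8 CPM in input and at 4.13, 3.63, 5.91 and 5.57 CPM in the non-defeated TRAP libraries, from raw counts of 296 to 406. The groups were well apart, with a log2 fold change of -2.11 (SE 0.24, adjusted p = 4.78e-06 by edgeR), a 4.33-fold lower level. As with Gabra5, the markers of excitatory neurons were lower in the same libraries. Their part in the level of either gene was not tested.

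Gabra4, an α subunit often found with δ, differed little. It stood at 70.7, 78.5 and 83.2 CPM in input and at 49.4, 63.0, 62.3 and 67.1 CPM in non-defeated TRAP. The highest TRAP library was just under the lowest input library. Its log2 fold change of -0.36 (SE 0.14, adjusted p = 0.0432 by edgeR) was near the threshold, and the exact permutation test gave p = 0.0571. The call was lost without non-defeated 1, 6 or 9, input 13 or 14 or resilient 8, with adjusted p between 0.0510 and 0.144, and without the 4 libraries high in thalamic markers, at -0.42 with an adjusted p of 0.0761.

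Gabrb2, which encodes the β2 subunit, was at much the same level in both kinds of RNA. It stood at 36.4, 42.2 and 36.6 CPM in input and at 36.5, 43.7, 49.4 and 44.9 CPM in non-defeated TRAP. The groups overlapped, and the log2 fold change of 0.18 (SE 0.14, adjusted p = 0.271 by edgeR) was within the spread.

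Gabrd was the most enriched member. It stood at 8.10, 8.68 and 11.8 CPM in input and at 36.1, 49.8, 41.4 and 40.4 CPM in non-defeated TRAP. Even the lowest TRAP library was far above the highest input library. The log2 fold change was 2.14 (SE 0.19, adjusted p = 3.51e-07 by edgeR), a 4.40-fold higher level, with an exact permutation p of 0.0286.

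Of the GABA-B subunits, the one that binds GABA was higher in TRAP. Gabbr1 stood at 143, 146 and 152 CPM in input and at 204, 202, 184 and 206 CPM in non-defeated TRAP, a log2 fold change of 0.44 (SE 0.12, adjusted p = 0.00600 by edgeR) and a 1.35-fold higher level, without overlap. Gabbr2 stood at 107, 112 and 121 CPM in input and at 97.7, 113, 132 and 107 CPM in non-defeated TRAP. Its groups overlapped, and its log2 fold change was -0.01 (SE 0.15, adjusted p = 0.957). Whether the changes of Gabbr1 and Gabbr2 differed from each other was not tested.

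**Figure D1:**
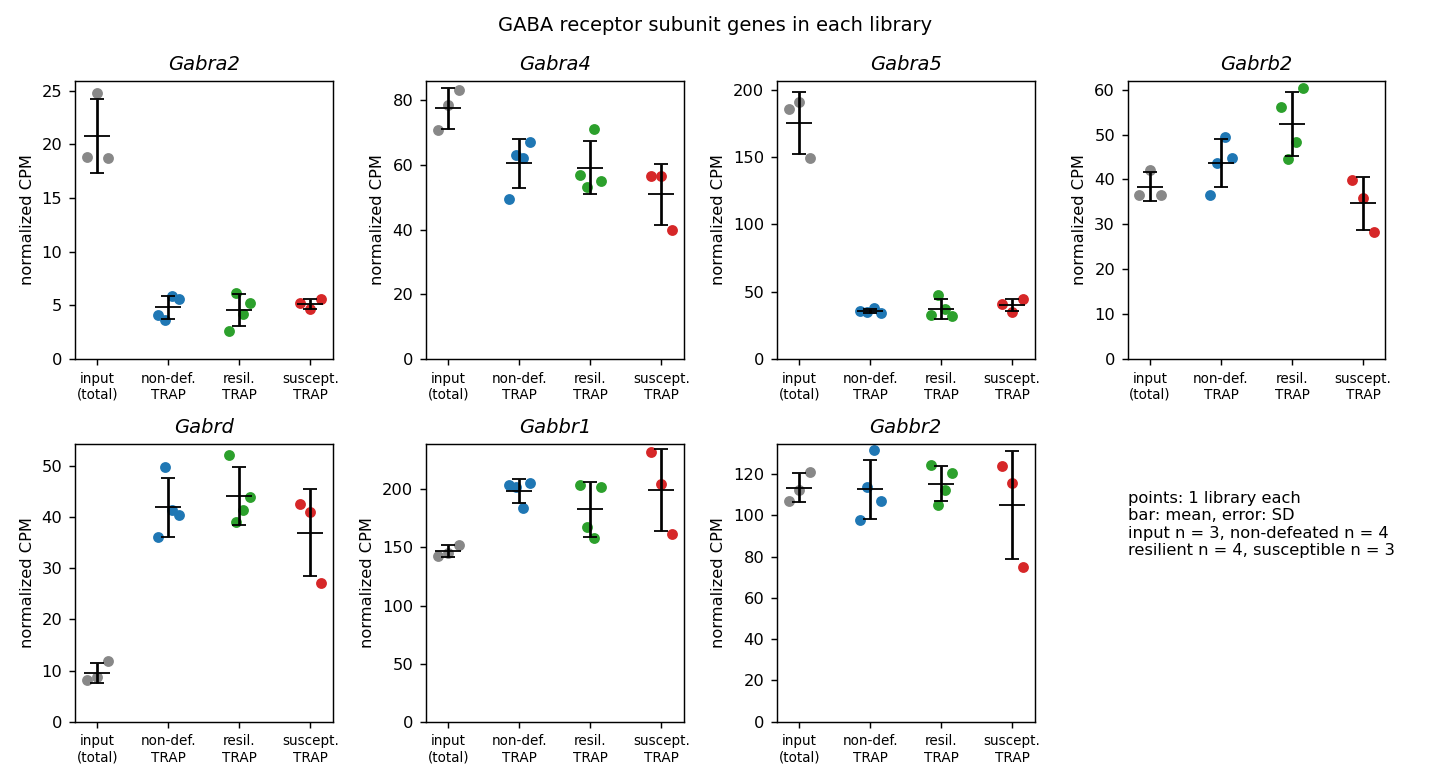
CPM (TMM-normalized, vertical axis) of each member in every library, by group (input, non-defeated, resilient and susceptible), with 1 panel per gene and the mean and SD of each group. Gabra2 and Gabra5 sit lower and Gabrd higher in the TRAP groups than in input, and the susceptible libraries of Gabrb2 lie below all resilient ones.

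The order of levels per length changed between input and TRAP. In input, Gabra5 led with 59.0 ± 7.65 RPKM (SD, n = 3), followed by Gabbr1 with 18.9 ± 0.624, Gabbr2 with 17.0 ± 1.05, Gabra4 with 12.7 ± 1.04 and Gabrb2 with 6.04 ± 0.519. Gabrd with 3.32 ± 0.694 and Gabra2 with 2.72 ± 0.454 RPKM came last, with ranges that overlapped. In non-defeated TRAP, Gabbr1 led with 25.6 ± 1.31 RPKM (SD, n = 4), then Gabbr2 with 16.8 ± 2.15, Gabrd with 14.6 ± 1.99 and Gabra5 with values between 11.5 and 12.8 (SD 0.601). Gabra4 with 9.94 ± 1.27, Gabrb2 with 6.86 ± 0.839 and Gabra2 with 0.630 ± 0.144 RPKM closed the order. The ranges of Gabbr2 and Gabrd overlapped, as did those of Gabrd and Gabra5, so these neighbours were not separated. The order was the same in resilient mice, but there the ranges of Gabra5 and Gabra4 and of Gabra4 and Gabrb2 overlapped as well. In susceptible mice Gabra5, with 13.5 RPKM, stood above Gabrd, with 12.9, but their ranges overlapped. Without the 4 libraries high in thalamic markers, every member kept its place in the order of input, non-defeated and resilient libraries, and the susceptible group held none of the 4.

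Set within its own family, each subunit's share of RPKM showed how far it led. Of the 6 α subunits, Gabra5 made up 63.0 ± 4.24% (SD, n = 3) in input and 18.5 ± 1.27% (SD, n = 4) in non-defeated TRAP. Gabra4 held 13.7% and 15.3%, and Gabra2 2.91% and 0.972%. The RPKM ratio of Gabra4 to Gabra5 was 0.220 ± 0.0461 in input and 0.831 ± 0.122 in non-defeated TRAP. Gabrb2 made up 19.4 ± 1.15% of the β subunits in input and 49.6 ± 2.33% in non-defeated TRAP, although its own level was not called. Gabrd made up 21.3 ± 3.93% of the γ and δ subunits in input and 42.5 ± 2.96% in non-defeated TRAP. The ratio of Gabbr1 to Gabbr2 was 1.12 ± 0.0324 in input and 1.55 ± 0.255 in non-defeated TRAP. Without the 4 libraries high in thalamic markers, which left 2 libraries in each of these groups, Gabra5 made up 65.4% in input and 18.2% in non-defeated TRAP, Gabrb2 19.2% and 49.2%, and the ratio of Gabra4 to Gabra5 was 0.193 and 0.782.

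**Figure D2:**
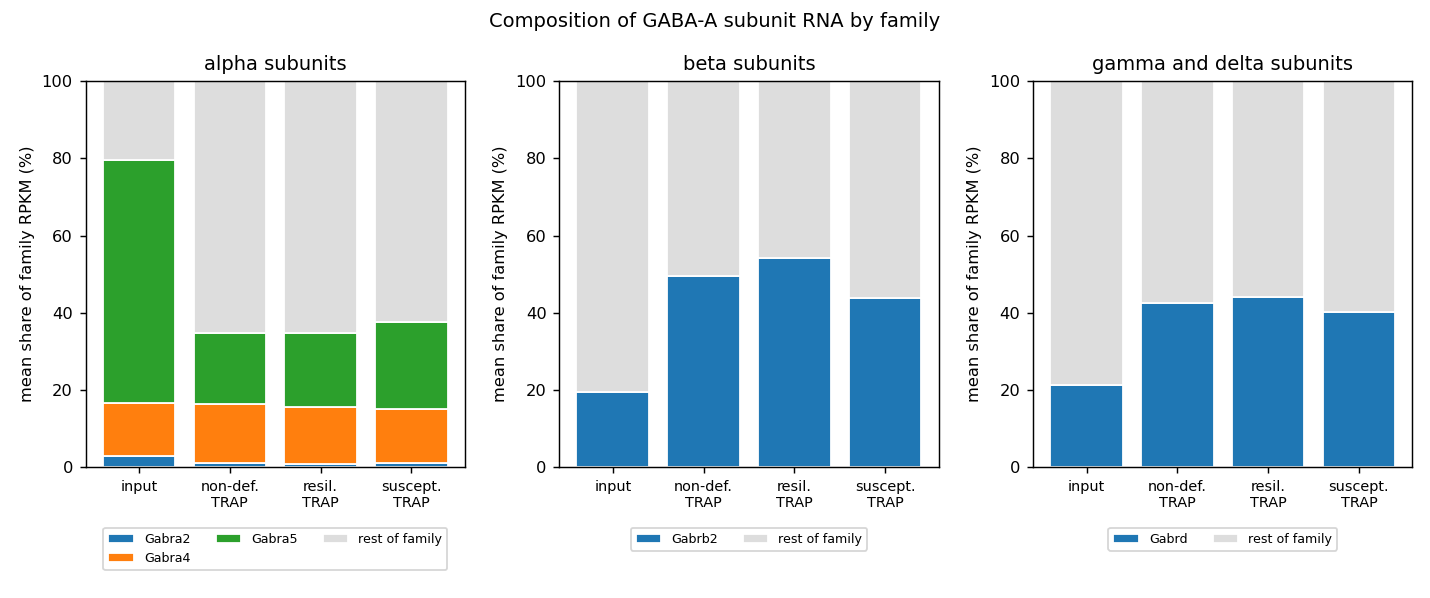
Share of each member in the summed RPKM of its family (percent, vertical axis) in input and the 3 TRAP groups, for α, β and γ with δ subunits, as group means, with the rest of the family in grey. Gabra5 takes 63.0% of α in input and 18.5% in non-defeated TRAP, and Gabrb2 goes from 19.4% to 49.6% of β.

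Many GABA-A subunit genes lie in clusters. On chromosome 5, Gabrg1, Gabra2, Gabra4 and Gabrb1 lie within 1.40 Mb (70751047 to 72149037). All 4 were called lower in TRAP, beside 27.6% of all genes, and the call of Gabra4 was near the threshold. Other clusters were mixed. On chromosome 7, Gabrg3 was called higher and Gabra5 lower, and on chromosome 11, Gabrb2 was not called and Gabra6 was called higher. Whether neighbouring genes changed together was not tested. Gabra6, another α subunit gene, had no count in any input library and 0 to 21 counts in the non-defeated TRAP libraries. It passed the filter on low counts only through TRAP libraries, so its call as higher adds no support. With input set at 3 counts in each library, its group mean was at least 4.41-fold higher in TRAP, although non-defeated 1 held no count.

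Of the other GABA-A subunit genes, 11 of 14 passed the filter. Of these, 4 (Gabra6 among them) were called higher and 3 lower in TRAP, beside 27.4% and 27.6% of all genes. Their median log2 fold change was 0.43, also with Gabra6 at its bound. Gabrg3, which encodes a γ subunit, rose by 1.43 on the log2 scale (adjusted p = 1.12e-05 by edgeR). Gabrb1 and Gabrg1, which lie beside Gabra2 and Gabra4, had log2 fold changes of -1.43 and -1.63 (adjusted p = 1.34e-05 and 1.51e-05).

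Of 22 genes for scaffolding and trafficking of GABA-A receptors, 8 were called higher and 6 lower, beside 27.4% and 27.6% of all genes. Their median was -0.04. Gabarapl2 rose by 1.02, Gabarapl1 by 0.75 (both relatives of the GABA-A receptor-associated protein) and Fam196a, also known as Insyn2a, a protein of inhibitory postsynapses, by 1.88 on the log2 scale. Kif5a, a kinesin motor, fell by 2.01 and Trak1, a motor adaptor, by 0.49. Of 22 partners and effectors of GABA-B receptors, 4 were called higher and 10 lower, beside the same shares of all genes, with a median of -0.44. Kctd8, an auxiliary subunit of GABA-B receptors, had 10.2 ± 1.06 CPM in input and 51.5 ± 2.19 in non-defeated TRAP (log2 fold change 2.34, adjusted p = 1.61e-08), while its relative Kctd12 fell by 1.12. Gng3 and Gnb5, which encode G protein subunits, rose by 0.90 and 0.28, and Gng2 and Gnai2 fell by 0.93 and 0.75. Without the 4 libraries high in thalamic markers, 3 other GABA-A subunits were called higher and 3 lower, 6 and 6 scaffold and trafficking genes, and 3 and 12 GABA-B partners. Over all genes, 4846 were then called higher and 5152 lower, of 21450 tested.

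**Figure D3:**
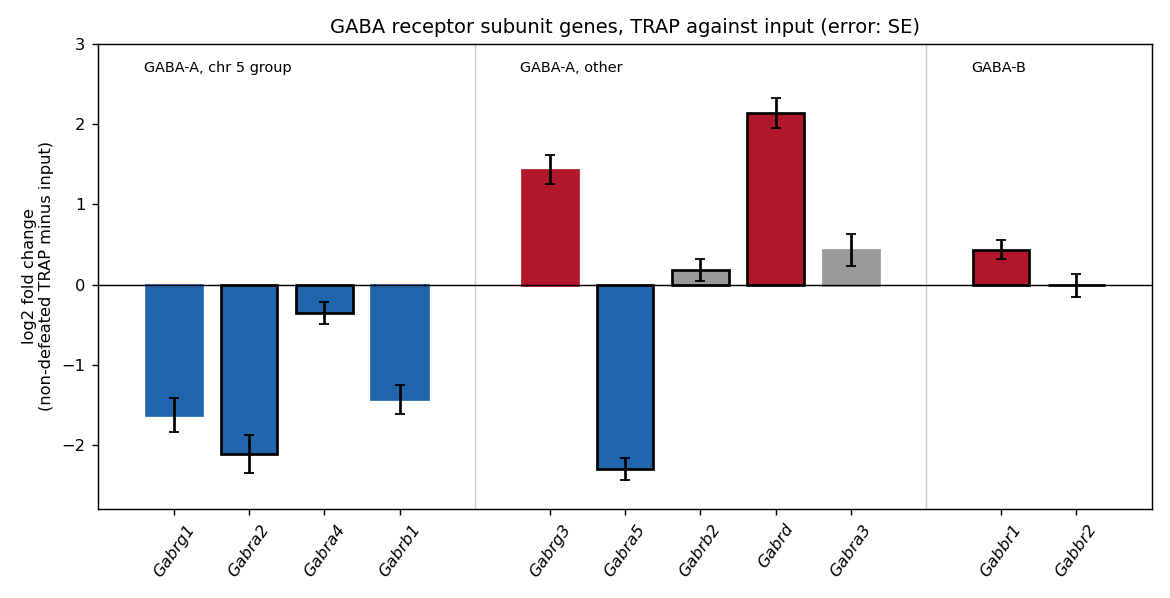
Log2 fold change of non-defeated TRAP over input (vertical axis, with whiskers for the SE) for the members, outlined in black, and for 4 other GABA-A subunits. Red marks genes called higher, blue those called lower and grey those not called, and Gabra5 (-2.30) and Gabrd (2.14) are the members furthest from 0 on either side.

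The remaining comparisons asked whether the subunits differed between mice by their response to CSDS. In resilient against non-defeated mice, 0 of 7 members were called by edgeR, and the share over all genes was 0%. At an unadjusted p under 0.05, 0 members and 4.38% of all genes stood out, and DESeq2 and the likelihood ratio test also called 0 members. The member with the largest difference was Gabrb2, at 0.26 (SE 0.13, unadjusted p = 0.0557, adjusted p = 1). The other 6 lay between -0.12 (Gabbr1) and 0.07 (Gabrd). In every member the groups overlapped.

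In susceptible against non-defeated mice, 0 of 7 members were called by edgeR, and 0.0376% of all genes were. At an unadjusted p under 0.05, 1 member stood out, against 13.3% of all genes, and DESeq2 and the likelihood ratio test called 0. This was Gabrb2 at -0.33 (SE 0.14, unadjusted p = 0.0308, adjusted p = 0.337), with an exact permutation p of 0.0857 and overlapping groups. Gabra4 was at -0.25 (adjusted p = 0.459), Gabrd at -0.18 (0.666) and Gabbr2 at -0.10, and Gabra5 was at 0.17 (0.599), Gabra2 at 0.10 and Gabbr1 at 0.00.

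In susceptible against resilient mice, 1 of 7 members was called, Gabrb2, and 1.89% of all genes were, a share that lay between 0.0282% (without resilient 8) and 4.88% (without susceptible 10) with a library of the comparison left out. At an unadjusted p under 0.05, the same member alone stood out, against 20.9% of all genes. Its groups were also the only ones among the members that did not overlap, as in 15.1% of all genes. The 3 stress comparisons share their samples in pairs, so they are not independent of each other. Gabrb2 stood at 56.1, 44.6, 48.4 and 60.3 CPM in resilient 3, 5, 7 and 8 and at 39.8, 36.0 and 28.3 CPM in susceptible 2, 4 and 10. Each susceptible library was under the lowest resilient one, and the non-defeated libraries, between 36.5 and 49.4 CPM, reached into both groups. The group means were 52.4 ± 7.14 CPM (SD, n = 4) for resilient mice and 34.7 ± 5.86 CPM (SD, n = 3) for susceptible ones. The log2 fold change was -0.59 (SE 0.14, adjusted p = 0.0468 by edgeR), a 1.51-fold lower level, and the two-sided exact permutation test gave p = 0.0286, the smallest possible.

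The adjusted p of Gabrb2 was close to the threshold, and most changes of the samples moved it across. The direction and an unadjusted p under 0.05 were present in the fit as reported and in all 16 alternatives (7 with a library of the comparison left out and 9 other settings), with log2 fold changes from -0.71 to -0.47. The call was kept without resilient 5 (adjusted p = 0.0486) but lost without resilient 3, 7 or 8 or susceptible 2, 4 or 10, with adjusted p between 0.0664 and 0.132. Leaving out a library of the other groups, which changes the estimate of the spread, kept the call without non-defeated 1 or 9 and lost it without non-defeated 6 or 11 or any input library, with adjusted p up to 0.0742. Without the 4 libraries high in thalamic markers, a setting that kept susceptible 10, the value was -0.64 (adjusted p = 0.121). The call was also lost with RLE size factors (adjusted p = 0.0522), no filter on low counts (0.0543), the groups compared only (0.147) and TRAP libraries only (0.104). It was kept by the likelihood ratio test (adjusted p = 0.00683), DESeq2 (0.0134), a stricter filter of 10 or more counts per library (0.0371) and the sample number as a covariate (0.0416).

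**Figure D4:**
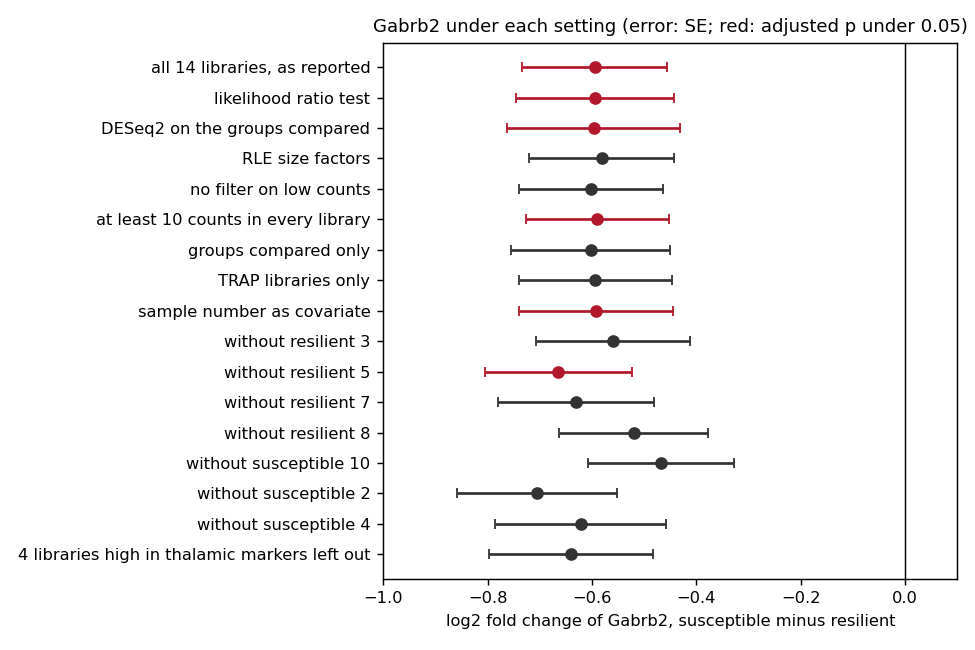
Log2 fold change of Gabrb2, susceptible minus resilient (horizontal axis, bars for the SE), in the fit as reported and in the alternatives (vertical axis). These are each other setting and each resilient or susceptible library left out, in red where the adjusted p was under 0.05. Every point lies between -0.71 and -0.47, but most are not red.

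Susceptible 10 had the lowest Gabrb2 of the 11 TRAP libraries, and it was also the lowest for Gabra4 (40.0 CPM), Gabrd (27.2 CPM) and Gabbr2 (75.2 CPM). Its summed PV markers, 3758 CPM, were the lowest too, against 4378 to 5322 CPM in resilient libraries. Its thalamic marker sum was 337 CPM, against 196 and 224 CPM in susceptible 2 and 4. That was the highest sum outside the 4 libraries high in thalamic markers, and leaving those out kept susceptible 10. Astrocyte markers summed to 449 CPM in it, the highest of the 11 TRAP libraries. The part of its PV, thalamic or astrocyte content in the result was not tested. Without susceptible 10 the log2 fold change of Gabrb2 was -0.47 (adjusted p = 0.0668 by edgeR). Among libraries numbered 1 to 6 in their names, the difference of mean log2 CPM for Gabrb2 was -0.40, and among those numbered 7 to 11, where susceptible 10 is the only susceptible library, it was -0.93. The labels do not say what the numbers stand for. The sums of markers of other interneurons were 529 to 882 CPM in resilient and 618 to 979 CPM in susceptible libraries, and those of excitatory neurons 943 to 1609 and 1072 to 1565 CPM.

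None of the other 6 members was called between susceptible and resilient mice. Gabra4 lay between 53.2 and 71.2 CPM in resilient libraries and stood at 56.4, 56.4 and 40.0 CPM in susceptible 2, 4 and 10. Gabrd stood at 52.1, 39.0, 41.4 and 44.0 CPM in resilient 3, 5, 7 and 8 and at 42.6, 41.1 and 27.2 CPM in the susceptible libraries. Gabbr2 lay between 105 and 124 CPM in resilient mice and at 124, 115 and 75.2 CPM in susceptible ones. In these 3 genes, susceptible 10 alone was below all resilient libraries. Gabra2 lay between 2.66 and 6.14 CPM in resilient and 4.66 and 5.58 CPM in susceptible mice, and Gabra5 between 31.9 and 47.5 and between 35.0 and 44.3 CPM. Gabbr1 ranged in susceptible mice from 162 to 232 CPM, against 158 to 203 CPM in resilient ones. The susceptible values of Gabra2 and Gabra5 lay inside the resilient range. As log2 fold changes, Gabrd was at -0.26 (adjusted p = 0.426), Gabra4 at -0.21 (0.417) and Gabbr2 at -0.14 (0.637). Gabra2 was at 0.18 (0.728), Gabbr1 at 0.13 (0.583) and Gabra5 at 0.11 (0.703). The median over the 7 members was -0.14, against 0.00 over all genes. Gabrb2's share of the β subunits was 54.3 ± 5.21% in resilient and 43.9 ± 3.82% in susceptible mice, with ranges that met between 47.0% and 47.3%.

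**Figure D5:**
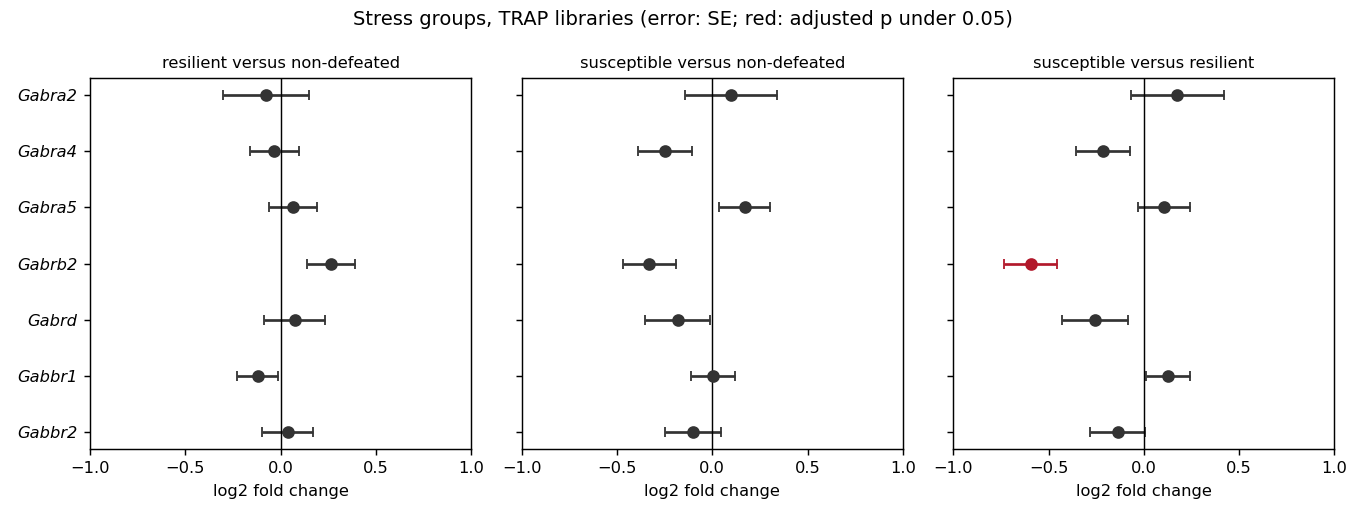
Log2 fold change (horizontal axis, bars for the SE) of each member (vertical axis) in resilient against non-defeated, susceptible against non-defeated and susceptible against resilient mice, in red where the adjusted p was under 0.05. Only Gabrb2 in the last comparison, at -0.59, is red.

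Of the other genes of the pathway, none was called between resilient and non-defeated or between susceptible and non-defeated mice by edgeR's quasi-likelihood test. For resilient mice 0 genes of the 3 lists had an unadjusted p under 0.05, the smallest being 0.0723 for Gabrg1, 0.0568 for Gabarap and 0.229 for Kctd12. For susceptible against non-defeated mice, 2 other GABA-A subunits, 6 scaffold and trafficking genes and 4 GABA-B partners did, of 11, 22 and 22, beside 13.3% of all genes. Gabra3 was at -0.54 (adjusted p = 0.290), Trak1 at -0.27 (0.208), Gnb5 at -0.29 (0.169) and Rgs7, which encodes a regulator of G protein signaling, at -0.45 (0.248).

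Between susceptible and resilient mice, 0 of 11 other GABA-A subunits were called and 0 had an unadjusted p under 0.05. The share called over all genes was 1.89%. Of the 22 scaffold and trafficking genes, 2 were called, both lower in susceptible mice, and 8 had an unadjusted p under 0.05 (5 higher and 3 lower), beside 20.9% of all genes. Clptm1, which holds GABA-A receptors back in the secretory pathway, fell by 0.40 (adjusted p = 0.0393), and Ubqln1, which binds receptor subunits and slows their breakdown, fell by 0.51 (adjusted p = 0.0427). Of the 22 GABA-B partners, Gnb5, a G protein β subunit that pairs with Rgs7, fell by 0.36 (adjusted p = 0.0382), and 4 of the list had an unadjusted p under 0.05. Like that of Gabrb2, these calls were lost in most of the alternatives that left out a library, of the comparison or of another group.

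Across the 11 TRAP libraries, the members varied in different patterns. As a description, with libraries, depth and normalization shared, Pearson's r of log2 CPM was 0.85 between Gabrd and Gabbr2, 0.77 between Gabrb2 and Gabrd and 0.75 between Gabrb2 and Gabbr2. Gabra5 ran against Gabrd (-0.60), Gabrb2 (-0.53) and Gabra4 (-0.43), and with Gabra2 (0.57). Of some 10583 other genes with a mean log2 CPM above 3, those most like Gabrb2 were Dner (0.97) and Lmbrd1 (0.97). Those most like Gabbr2 were Kcnt1 (0.98) and Enpp5 (0.95), and those most like Gabrd were 1110035H17Rik (0.95) and Tmem184b (0.94). Gabra2 ran closest to Lats1 (0.97) and Atp8a1 (0.94), Gabra4 to Lgi2 (0.93) and Slc8a3 (0.92) and Gabbr1 to Rbp4 (0.91) and Slc35g2 (0.90). Gabra5 ran closest to Mobp, a myelin gene (0.91), and Hpca, which encodes the neuronal calcium sensor hippocalcin (0.89). Over the 8 TRAP libraries that were not high in thalamic markers, r was 0.91 between Gabrd and Gabbr2, 0.79 between Gabrb2 and Gabrd and 0.76 between Gabrb2 and Gabbr2, and Gabra5 stood at -0.62 with Gabrd and 0.68 with Gabra2.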

How the data were processed

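Counts came from 11 TRAP libraries (4 non-defeated, 4 resilient, 3 susceptible) and 3 input libraries of total RNA. The authors trimmed the reads, aligned them to mm10 and deposited raw counts per gene, without normalization, from full-length cDNA libraries that do not mark strand. The submitters' processing notes name STAR 2.5.3a and HTSeq; the annotation and the counting options are not given in the sources used here. Release 21 of the GENCODE mouse annotation named 37693 of the 39017 gene identifiers and gave exon lengths. No column was left out.

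The model was fitted with edgeR 4.0.16 (R 4.3.3): all 14 libraries in 1 quasi-likelihood model with a term per group, TMM normalization, edgeR's default filter (21298 genes) and Benjamini-Hochberg adjustment. The study used DESeq2 between pairs of groups, which is an alternative here. Single members were also compared by a two-sided exact permutation test over samples on log2 CPM (prior count 2), whose smallest possible p was 0.0286. Total counts were 64110214 to 94726962 per library, and each test's estimate of the spread between samples includes counting error.

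The members, the pathway and marker lists and the alternatives were chosen with earlier results of these data known. Named were every member, up to 3 called genes per direction in each pathway list and comparison (otherwise the genes with the smallest p), and the genes most like each member. Some genes that met this rule are not reported here. Alternatives were the likelihood ratio test, DESeq2 1.42.0, RLE size factors, no filter, at least 10 counts in every library, the groups compared only, TRAP libraries only, the sample number as a covariate, CPM in place of RPKM for the level order, and each library left out. Leaving out the 4 libraries high in thalamic markers was chosen after seeing the data. Only the quasi-likelihood test and DESeq2 were also run on simulated counts, for susceptible against resilient mice.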

Additional observations from a re-analysis of the deposited data

Results flagged for a closer look

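Among the 14 member and group combinations with 4 libraries (non-defeated and resilient), 1 held a library far from the rest. Gabbr1 in non-defeated 9 was 184 CPM, whereas the other 3 non-defeated libraries lay between 202 and 206 CPM. The gap to the nearest library was 0.831 of the group's range, just over Dixon's 95% critical value for 4 samples. By chance about 1 in 20 such groups is expected to pass this limit. Non-defeated 9 was also one of the libraries with a high thalamic marker sum. Its part in this value was not tested.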

How the results depend on the processing

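No paired analysis was made. The groups share no sample numbers, and the numbers do not show whether an input and a TRAP sample came from the same homogenate. In TRAP against input, the calls of Gabra2, Gabra5, Gabrd and Gabbr1 held in all 7 alternatives and with each library of the comparison left out. That of Gabra4 was lost with RLE size factors (-0.34) and with 5 of the 7 libraries. In susceptible against resilient mice, the count of members called went from 1 to 0 with RLE size factors, no filter, the groups compared only, TRAP libraries only and the 4 thalamic-high libraries left out, and was 0 to 1 with a library left out. Without a filter, with the groups compared only, with TRAP libraries only and without the thalamic-high libraries, 0 scaffold and trafficking genes and 0 GABA-B partners were called. The likelihood ratio test and the sample number covariate each called 3 GABA-B partners. With 1 of the 7 libraries of the comparison left out, the counts were 0 to 3 for scaffold and trafficking genes (3 without susceptible 10) and 0 to 1 for GABA-B partners, and with 1 of the other groups left out, 0 to 3 and 0 to 2. In CPM without length, 3 of 7 members kept their place in the level order of non-defeated TRAP.

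Signs changed only in members that were not called. For Gabbr2 in TRAP against input, the value was 0.0117 with DESeq2 and 0.00586 with RLE size factors, and -0.0956 to 0.0513 with a library left out. In resilient against non-defeated mice without the thalamic-high libraries, Gabra2 was 0.29, and with a library left out the ranges were -0.256 to 0.111 for Gabra2, -0.135 to 0.0170 for Gabra4, -0.0752 to 0.131 for Gabra5, -0.0168 to 0.167 for Gabrd and -0.0261 to 0.121 for Gabbr2. In susceptible against non-defeated mice, Gabbr1 was -0.0457 with the sample number covariate and -0.0167 without the thalamic-high libraries, and the ranges were -0.0154 to 0.214 for Gabra2, -0.119 to 0.134 for Gabbr1 and -0.241 to 0.0890 for Gabbr2. In susceptible against resilient mice they were -0.0114 to 0.355 for Gabra2 and -0.276 to 0.0534 for Gabbr2. The cause of these changes was not tested. Over all genes, susceptible against resilient mice gave 217 higher and 186 lower calls, 567 and 532 by the likelihood ratio test, 504 and 500 by DESeq2, 58 and 68 without a filter, 567 and 542 with the sample number covariate, 0 and 1 in TRAP libraries only, and 0 with the groups compared only or without the thalamic-high libraries. With a library of the comparison left out they were 11 and 15 (resilient 3), 105 and 91 (resilient 5), 4 and 8 (resilient 7), 2 and 4 (resilient 8), 2 and 5 (susceptible 2), 26 and 47 (susceptible 4) and 652 and 406 (susceptible 10). With a library of another group left out they lay between 18 and 31 (input 13) and 352 and 353 (non-defeated 1).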
